A study of Canis lupus familiaris with 30 samples.

Results

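PAX8, GLIS3, HHEX, TSHR and TRHR were followed through 30 canine thyroid tumors. The first 3 genes encode transcription factors of the thyroid lineage, and TSHR and TRHR encode the receptors for thyrotropin (TSH) and thyrotropin-releasing hormone (TRH). They were taken by gene symbol from a table of read counts with 30424 genes, of which 15780 carried a symbol, and all 5 were found. The samples were primary thyroid gland tumors of pet dogs (Canis lupus familiaris) archived frozen during clinical care, 1 RNA-seq library of total RNA depleted of ribosomal RNA for each. The sample labels name every one as tumor tissue and give no tumor type, age, sex or treatment, so all 30 tumors form 1 group. The tumor types that the study assigned to its tumors elsewhere were not used here. No normal thyroid was compared here.

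In the thyroid follicle, the paired box factor PAX8 and the homeobox factor HHEX are present from the first stages of the gland, and PAX8 switches on the genes of hormone synthesis. GLIS3 is a zinc finger factor that acts downstream of TSH in the same cells. TSH binds TSHR on the follicular cell and, mainly through Gs and cyclic AMP, drives iodide uptake, hormone synthesis and growth. TRHR couples to Gq and phospholipase C and is best known in the pituitary, where TRH releases TSH. The C cells of the thyroid make calcitonin and belong to another lineage than the follicular cells.

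The libraries held 12288945 to 45148677 reads on genes (median 25569678). No 2 libraries were identical, and their profiles correlated with a rho of 0.797 to 0.959. Each count was divided by a size factor for its library and given as a level, log2 of this normalized count plus 1. Levels carry no correction for gene length, so those of different genes are not compared. TC538 had the smallest size factor (0.279). TC1088, which the study left out of its own differential expression, was kept here unless stated. Relations between genes were tested over 25 tumors, the larger of 2 branches of a clustering that used neither the 5 genes nor any list described here. The other 5 tumors are too few to test and were left out of these correlations.

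PAX8 was present in all 30 tumors, and its counts ranged from 6 to 35894. Its level was lowest in TC2289 (3.12), had a median of 13.45 and was highest in TC1869 (14.94). The mean level was 12.42 ± 2.77 (SD, n = 30). The upper end was narrow and the lower end long, with the middle of the tumors between 12.91 and 13.94 (quartiles) and a tail of low tumors. In the larger branch PAX8 ranged from 10.84 to 14.94 in 24 tumors, with TC538 at the bottom of that range, and TC1088 stood below them at 6.87 (116 counts). The 5 tumors of the smaller branch, from 3.12 to 10.68, and TC1088 lay below the other 24. Over all tumors 2.39% of the 18711 genes tested had a larger SD, a value that spans both branches. Within the larger branch it was 12.9% of 18106 genes, and the SD of PAX8 was 1.56, or 0.80 without TC1088.

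GLIS3 was also counted in every tumor, with 36 to 3475 counts. Its level was 5.16 in TC1020, 10.24 at the median and 11.66 in TC2288, with a mean of 9.64 ± 1.71 (SD, n = 30). Over 30 tumors 14.3% of genes had a larger SD, and over the larger branch 37.8%. Its SD was below that of PAX8 over all tumors, but above it in the larger branch without TC1088 (0.99 against 0.80). Within the larger branch it ran from 7.70 in TC812 to 11.66 with no tumor apart, and TC1088 lay inside this range at 8.94.

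HHEX was the steadiest of the 3 factors outside a single tumor. Its level was 4.75 in TC1088 (26 counts), 12.52 at the median and 13.56 in TC2089, and the mean was 12.25 ± 1.53 (SD, n = 30). Without TC1088 the other 24 tumors of the larger branch lay between 11.37 and 13.56, with an SD of 0.53 in place of 1.66. Over 30 tumors 18.8% of genes had a larger SD, and over the larger branch with TC1088 10.8%.

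TSHR transcripts were found in all tumors, and only in TC1088 were they near the limit of counting, with 1 count. Its level was 1.00 in TC1088, 12.24 at the median and 14.11 in TC538, with a mean of 11.64 ± 2.54 (SD, n = 30). The highest level depends on normalization, since TC538 had 4925 counts and the smallest size factor (0.279). The most counts, 18375, were in TC1869, at a level of 13.97. Without TC1088 the 24 tumors of the larger branch lay between 10.74 and 14.11. With TC1088 in, 3.7% of genes had a larger SD over 30 tumors and 2.13% over the larger branch. The SD of TSHR in that branch was 2.47, or 0.92 without TC1088.

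TRHR was the most variable of the 5 genes, and only 0.155% of genes had a larger SD over 30 tumors. Within the larger branch it was 0.453%, with an SD of 3.13, or 2.68 without TC1088. Its level ran from 0.00 through a median of 8.68 to 11.80 in TC2288, with a mean of 6.99 ± 4.02 (SD, n = 30). It had 0 counts in 4 tumors and under 10 counts in 8. A count of 0 allows up to 3 counts, which is a level of 1.84 to 2.28 in those 4 tumors, and this limit covers counting error only. In the larger branch TC1088 had 0 counts, TC812 had 2 and TC640 had 8. The next tumor by level, TC67, had 43, and the most counts, 3665, were in TC1218. Low TRHR did not go with low TSHR in each of these tumors. TC640 had a TSHR level of 13.37, within the upper part of the range, and TC812 one of 10.77, near the bottom of it. In bulk tumors fewer cells of a type and less RNA per cell cannot be told apart, and this holds for every level given here.

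**Figure D1:**
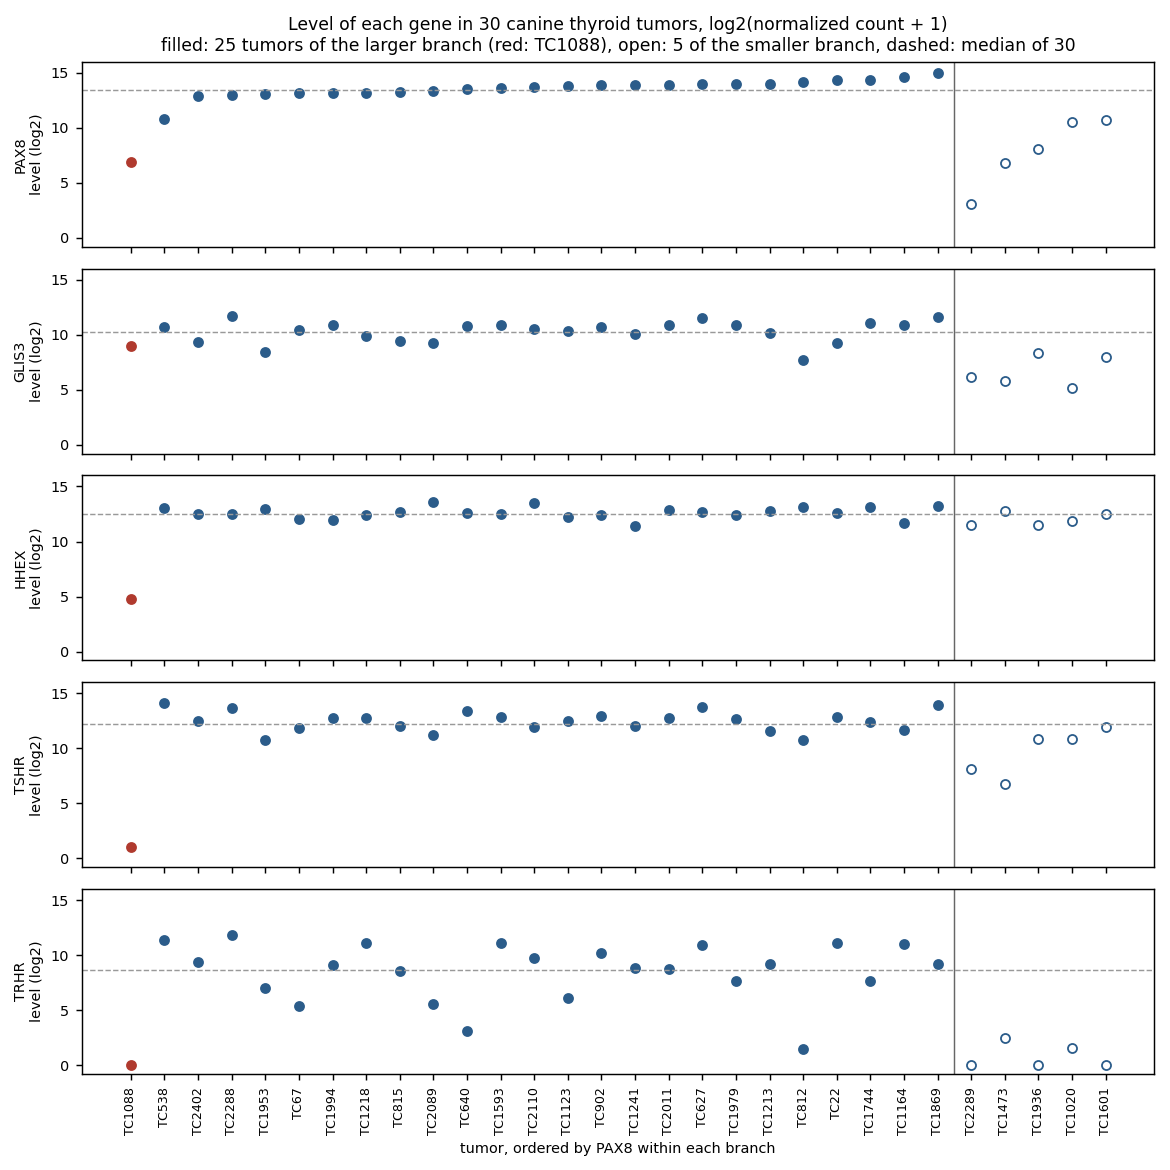
The level of PAX8, GLIS3, HHEX, TSHR and TRHR (y axis, log2 of normalized count plus 1) in each of 30 tumors (x axis), with filled points for the larger branch, open points for the smaller branch and the median of 30 tumors as a dashed line. TC1088 is lowest of the larger branch for PAX8 (6.87), HHEX (4.75), TSHR (1.00) and TRHR (0.00) but not for GLIS3 (8.94), and TRHR spreads from 0.00 to 11.80.

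The ligands and relatives of these genes were measured as background. The hormones themselves were hardly counted, with at most 12 counts of TRH in any tumor, and at most 28 of TSHB and 5 of CGA, which encode the subunits of TSH. GPHA2 and GPHB5, the subunits of thyrostimulin, another ligand of TSHR, reached 127 and 37 counts. TRHDE, which degrades TRH, was under 10 counts in 24 tumors but reached 1386 counts in TC22. The gonadotropin receptors LHCGR and FSHR, the nearest relatives of TSHR, were under 10 counts in 27 and 28 tumors. LGR4, a more distant relative that binds R-spondins, was counted in every tumor with at least 161 counts. Among the PAX family, PAX9 was under 10 counts in 2 tumors, whereas PAX1, PAX2, PAX3, PAX4, PAX5 and PAX7 were under 10 counts in 26 to 30 tumors. GLIS1 and GLIS2, the relatives of GLIS3, had at least 334 and 73 counts in each tumor.

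Which of the 5 genes varied together was asked over the 25 tumors of the larger branch. Significance was taken from Spearman's rho with a permutation p, adjusted by Benjamini-Hochberg over all 90525 relations of the 5 genes with 18105 genes each, and 0 of 10 pairs passed an adjusted p of 0.05. At an unadjusted p of 0.05, 2 pairs passed. The edgeR test, with the level of the first gene of a pair as a covariate of the counts of the other, called 2, HHEX and TSHR (adjusted p = 0.00713) and TSHR and TRHR (adjusted p = 0.0247). It was run only with TC1088 in. GLIS3 and TSHR had the largest rho, 0.66 (permutation p = 0.000518, adjusted p = 0.0767), with r = 0.51 (permutation p = 0.0165) and r = 0.55 without the 2 tumors farthest from the GLIS3 median. TSHR and TRHR followed with rho = 0.61 (permutation p = 0.00167, adjusted p = 0.105) and r = 0.66 (permutation p = 0.00031), which was 0.49 without the 2 farthest tumors. For GLIS3 and TRHR rho was 0.39 (permutation p = 0.0533, adjusted p = 0.312) and r was 0.52 (permutation p = 0.0077), or 0.37 without the 2 farthest tumors. GLIS3, TSHR and TRHR thus had the 3 highest rho values among the 10 pairs, and none was called by rho.

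**Figure D2:**
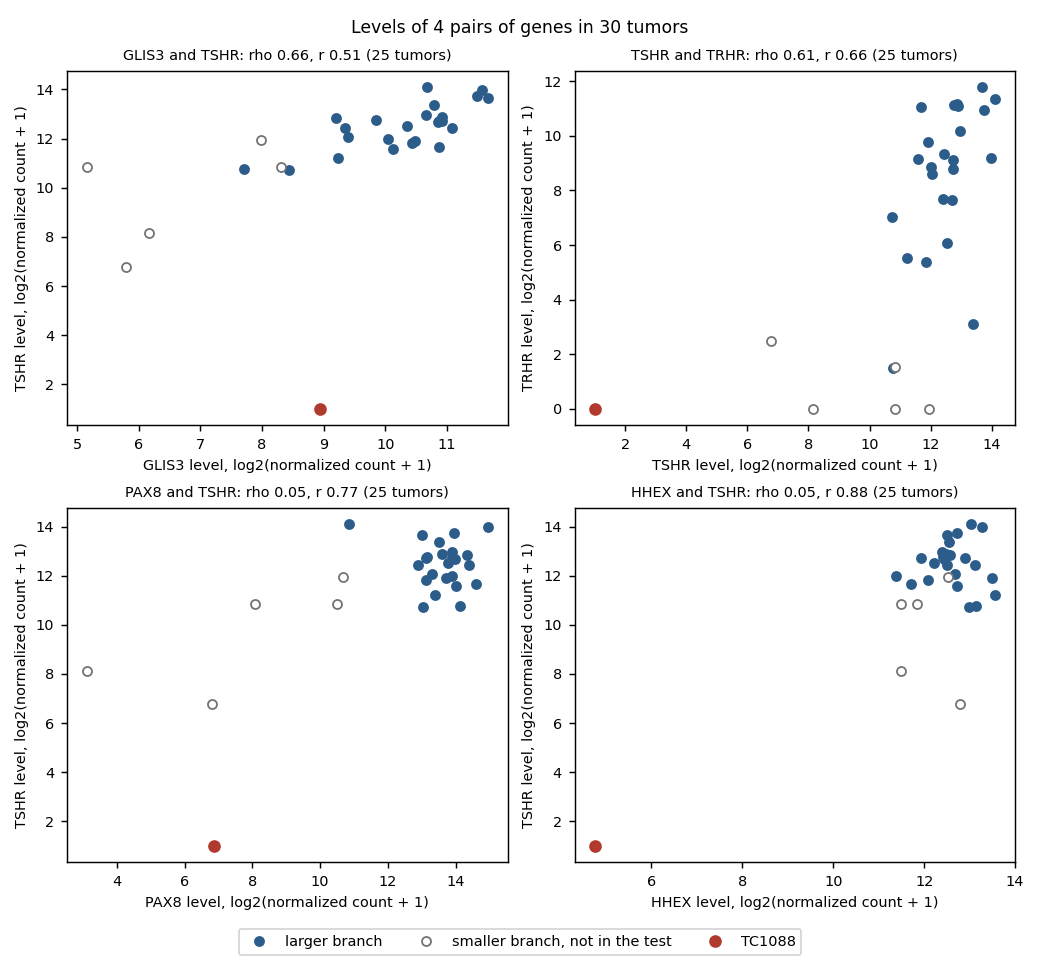
Levels (log2 of normalized count plus 1) of 4 pairs of genes, with 1 point per tumor, filled for the 25 tumors in the test and open for the 5 left out. The points of GLIS3 and TSHR rise together apart from TC1088 (rho 0.66), whereas for PAX8 and TSHR and for HHEX and TSHR the other 24 tumors form a cloud and TC1088 alone lies at the lower left (rho 0.05 for both, r 0.77 and 0.88).

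PAX8 and HHEX showed the reverse picture, a high r and a low rho. HHEX and TSHR had r = 0.88 (permutation p = 0.0234) but rho = 0.05 (permutation p = 0.804), and r was −0.12 without TC1088 and TC1241, the 2 tumors farthest from the HHEX median. PAX8 and HHEX had r = 0.82 (permutation p = 0.0234) and rho = 0.22 (permutation p = 0.293), and r fell to 0.11 without TC1088 and TC538. PAX8 and TSHR had r = 0.77 (permutation p = 0.0324) and rho = 0.05 (permutation p = 0.818), with r = 0.15 without the same 2 tumors. The relations of PAX8, HHEX and TSHR by r rested on those tumors. PAX8 and GLIS3 had rho = 0.26 and r = 0.28, and GLIS3 and HHEX rho = 0.02 and r = 0.20, neither with a permutation p below 0.05. With TRHR, PAX8 had rho = 0.05 and r = 0.42 (permutation p = 0.0482), and HHEX had rho = 0.00 and r = 0.47 (permutation p = 0.0416). These 2 values of r were 0.05 and −0.21 without the 2 farthest tumors of each.

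**Figure D3:**
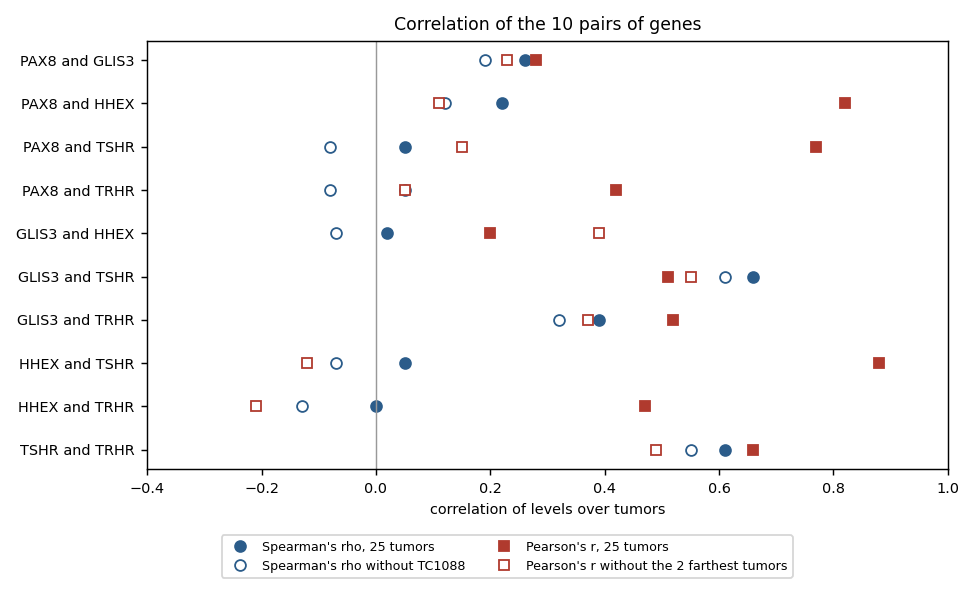
Spearman's rho (circles) and Pearson's r (squares) of the 10 pairs of genes over tumors of the larger branch, filled for all 25 tumors and open without TC1088 (rho) or without the 2 farthest tumors (r). GLIS3 and TSHR and TSHR and TRHR keep coefficients from 0.49 to 0.66 in every version, whereas HHEX and TSHR runs from −0.12 to 0.88.

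The genes of thyroid hormone synthesis were read next, as the targets and working parts of the follicular cell. All 16 genes of the list were tested, and SLC5A8 with TSHR (adjusted threshold, 0.0663% of all genes rose with TSHR) was the only call by rho among 80 relations. The edgeR test called 14 of the 80, all rising, where 1.24% of all relations were called rising. This test was run only with TC1088 in, the lowest tumor of the branch for PAX8, HHEX, TSHR and TRHR. How many of its calls rest on that tumor was not tested. At an unadjusted p below 0.05, 5 of 16 had a positive rho with PAX8 and 0 a negative one, against 15.2% and 14.7% of all genes. With GLIS3 the counts were 6 and 0, against 5.18% and 5.21% of all genes. With HHEX it was 2 and 0 (all genes 6.93% and 5.58%), with TSHR 3 and 0 (6.18% and 6.76%), and with TRHR 1 and 0 (8.74% and 7.44%). The median rho of the 16 genes was 0.27 with PAX8, 0.30 with GLIS3, 0.19 with HHEX, 0.23 with TSHR and 0.16 with TRHR, where the median over all genes lay between −0.00 and 0.02. Without TC1088, in the same order, 3, 2, 0, 1 and 1 of the 16 had a positive rho at this threshold, 1, 1, 0, 1 and 0 a negative one (SLC26A7 with PAX8, IYD with GLIS3 and IYD with TSHR), and the medians were 0.28, 0.24, 0.10, 0.13 and 0.06.

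With PAX8 the genes at the unadjusted threshold were the hydrogen peroxide machinery of the follicle, the oxidases DUOX1 and DUOX2 and their maturation factors DUOXA1 and DUOXA2, with the deiodinase DIO1. DUOXA2 had the largest rho with PAX8, 0.69 (permutation p = 0.000222, adjusted p = 0.0616), with r = 0.86, or 0.60 without TC1088 and TC538. DUOXA1 had rho = 0.59 (adjusted p = 0.115) and DUOX2 rho = 0.55 (adjusted p = 0.138). With GLIS3 they were thyroglobulin (TG), the iodide symporter SLC5A5, SLC5A8, DUOX2, DUOXA1 and DUOXA2. TG with GLIS3 had rho = 0.63 (permutation p = 0.00101, adjusted p = 0.0923) and r = 0.47. With TSHR they were TG, SLC5A5 and SLC5A8, all 3 of which were also in the GLIS3 set. Whether these sets differ between the 5 genes was not tested.

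SLC5A8, a sodium-coupled transporter of monocarboxylates in the follicular cell, had a rho of 0.75 with TSHR (permutation p = 2.74e-05, adjusted p = 0.0396), with r = 0.47 (permutation p = 0.0299) and r = 0.71 without TC1088 and TC1953. Its level ran from 0.00 to 10.76 over the 30 tumors. The call was lost without TC1088 (rho 0.73, adjusted p = 0.0609) and without TC538 (adjusted p = 0.0659). The pendrin gene SLC26A4 was the only gene of the list at the unadjusted threshold with TRHR (rho 0.50, adjusted p = 0.182). IYD, which recovers iodide from iodotyrosines, and DUOX1 were those with HHEX (rho 0.40 and 0.43).

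**Figure D4:**
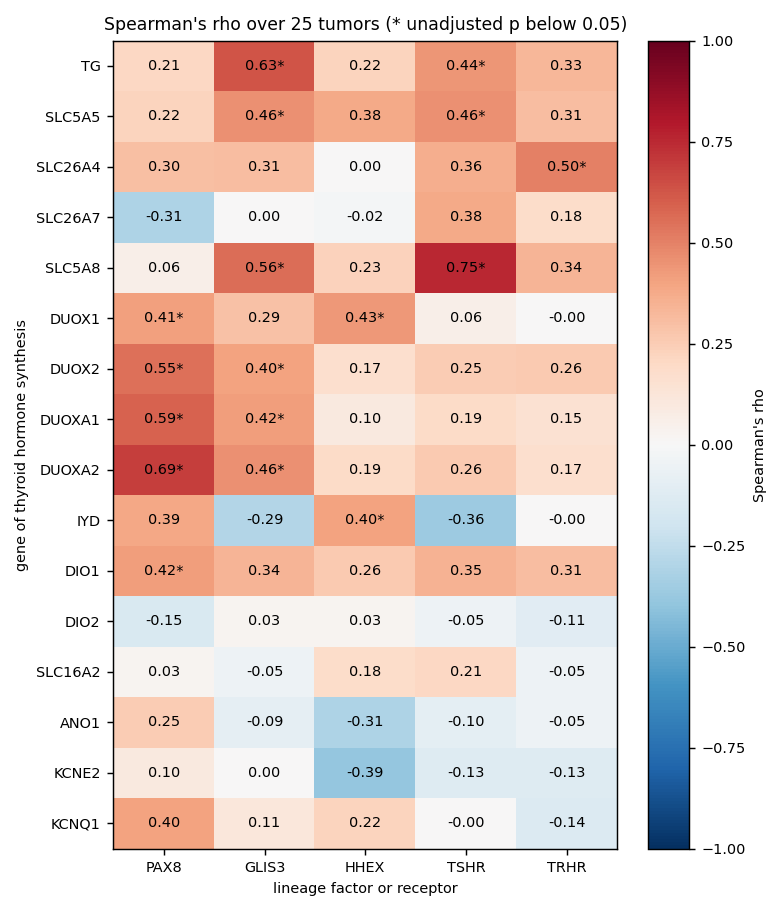
Spearman's rho (color and number) over 25 tumors between 16 genes of thyroid hormone synthesis (rows) and the 5 genes (columns), with a star at an unadjusted permutation p below 0.05. Stars stand in the DUOX rows for PAX8 (0.41 to 0.69) and, but for DUOX1, for GLIS3 (0.40 to 0.46), and in TG, SLC5A5 and SLC5A8 for GLIS3 and TSHR (0.44 to 0.75).

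The makeup of the libraries moved with some of these levels. Relations of the 5 genes with 8 summed marker lists and 3 measures of depth were tested as 1 family of 55. The percent of counts taken by the 10 highest genes of a tumor, which ran from 15.64 to 40.22 in the larger branch, rose with GLIS3 (rho 0.75, permutation p = 3.7e-05, adjusted p over the 55 = 0.00203, r = 0.66) and with TSHR (rho 0.60, permutation p = 0.00179, adjusted p = 0.0328, r = 0.37). The summed level of the hormone synthesis genes rose with GLIS3 (rho 0.64, permutation p = 0.000756, adjusted p = 0.0208, r = 0.53). TG can take most of this sum, as in TC1869 with 22.65 for TG alone and 22.74 for the sum, and the relation with GLIS3 was close to that of TG itself (rho 0.63), while the median rho of the list was 0.30. PAX8 had rho = 0.46 with the total of counts on genes (permutation p = 0.0229, adjusted p = 0.18). The part of depth and of the most abundant transcripts in the relations of GLIS3, TSHR and PAX8 was not tested.

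The pathways behind the receptors were read against all relations of the 5 genes, of which 16.4% passed the unadjusted threshold in either direction and edgeR called 4.37%. Of 20 genes from GNAS to the effectors of cyclic AMP, 0 of 100 relations with the 5 genes were called by rho, 7 were positive and 10 negative at the unadjusted threshold, a share near that of all relations, and edgeR called 10. With TSHR, ADCY9 had a positive rho at the unadjusted threshold (0.45) and ADCY5 (−0.52) and ARRB2 (−0.45) a negative one, while the median was −0.04. Without TC1088 ADCY9 no longer did (rho 0.38), and 0 were positive and 1 negative. With TRHR, CREM was positive and ADCY5, PRKACA and ARRB2 negative, and 3 genes were positive and 3 negative without TC1088. With PAX8, GNAS, ADCY3, PRKACA and RAPGEF3 were positive, with PRKACB, CREB1 and PDE4D negative, and without TC1088 3 were positive and 1 negative. Of 15 tested genes of the Gq and phospholipase C pathway, 0 of 75 relations were called by rho, 6 were positive and 7 negative at the unadjusted threshold, again near the share of all relations, and edgeR called 12. ITPR1, an inositol trisphosphate receptor, was the only one at the unadjusted threshold with TRHR (rho −0.45), and without TC1088 it was not (−0.39), while 2 others were positive and 0 negative. The tested ligands (3 genes), receptor relatives (4), PAX and GLIS relatives (3) and factors of thyroid and pharyngeal development (12) gave 0 calls by rho. At the unadjusted threshold they gave 1, 0, 2 and 5 relations, and edgeR called 4, 4, 4 and 9. Among the development genes were TBX3 with HHEX (rho 0.50, r = 0.90, or 0.49 without TC1088 and TC1241) and EYA1 with PAX8 (rho −0.45, r = −0.72, or −0.37 without TC1088 and TC538).

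Markers of other cells were counted the same way, and 0 genes of the C cell, parathyroid, skeletal muscle, fibroblast, endothelium, leukocyte or proliferation lists were called by rho with any of the 5 genes. At the unadjusted threshold these lists gave 4, 1, 7, 8, 2, 4 and 6 relations in that order, and edgeR called 0, 0, 2, 2, 1, 0 and 2, where 16.4% of all relations passed that threshold and edgeR called 4.37%. Over all genes 6.93% had a positive rho at this threshold with HHEX and 14.7% a negative one with PAX8. With HHEX 6 of 8 fibroblast genes had a positive rho at the unadjusted threshold, among them the collagens COL1A1 (0.45) and COL3A1 (0.43), with a median of 0.42. Without TC1088, whose summed fibroblast level of 11.28 was the lowest of the larger branch, 0 of 8 did so. The median rho of the 8 was then 0.37, where that over all genes was −0.00. With PAX8 the leukocyte genes PTPRC (rho −0.61, adjusted p = 0.105), CD2 (−0.53) and CD163 (−0.47) had a negative rho at that threshold, 3 of 7 tested, and 3 without TC1088. With HHEX 3 of 8 C cell genes, CALCA (rho 0.60, adjusted p = 0.107), SCG2 and CHGB, had a positive rho, also without TC1088. With TSHR the replication gene MCM2 had rho = −0.68 (permutation p = 0.000237, adjusted p = 0.0627), with MKI67 at −0.42. The part of other cells in the levels of the 5 genes was not tested beyond a partial rho. This held fixed a single mean level over all genes of the fibroblast, endothelium and leukocyte lists, not each list apart. Under it 100% of the genes called with each of the 5 were called again. Its p came from a t distribution, not from permutations, and the adjusted p was smaller at the same rho. XRCC5 with PAX8 had −0.79 both times, with adjusted p = 0.0308 by permutation and 0.0146 here. The return of all calls therefore cannot show whether they hold given other cells.

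Over all 18105 genes, 45 rose with PAX8 (0.249%) and 18 fell (0.0994%). The highest by rho were CTIF (0.85, adjusted p = 0.017), a factor of cap-dependent translation, FRS3 (0.83, adjusted p = 0.017), an adaptor of fibroblast growth factor receptors, and BAG6 (0.81, adjusted p = 0.0251), a chaperone of protein quality control. XRCC5, the Ku subunit of DNA end joining (−0.79, adjusted p = 0.0308), ASNSD1 (−0.79, adjusted p = 0.0308) and the cyclin CCNT1 of transcription elongation (−0.76, adjusted p = 0.0375) were lowest. CTIF had r = 0.62 with PAX8 (permutation p = 0.02) and 0.80 without TC1088 and TC538. The number of calls fell to 12 without TC1088 and to 11 without TC538, and 10 of the 63 were among them each time. CCNT1 lost its call each time (adjusted p = 0.0542 and 0.0603), and the other 5 named genes kept theirs.

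With GLIS3, 23 genes rose (0.127%) and 6 fell (0.0331%), where TMM factors gave 32 and 15. The carbohydrate-sensing transcription factor MLXIPL (0.79, adjusted p = 0.0308), the GTPase RAB44 (0.78, adjusted p = 0.0308) and UBN1, a subunit of the HIRA histone chaperone (0.77, adjusted p = 0.0326), were highest. The level of RAB44 was low, with a median of 3.61 and a lowest value of 0.00. PRKG1, the cyclic GMP-dependent kinase, was lowest (−0.83, adjusted p = 0.017) with r = −0.80 (permutation p = 1e-05, the smallest that 100000 permutations give) and −0.72 without the 2 farthest tumors, followed by the p38 kinase kinase MAP2K6 and TSTD2 (both −0.74, adjusted p = 0.0396). Calls fell to 10 without TC1088 and 11 without TC538, of which 5 and 10 were among the 29. UBN1, MAP2K6 and TSTD2 were lost without TC1088 (adjusted p = 0.0542, 0.0627 and 0.0609), and MAP2K6 and TSTD2 without TC538 (adjusted p = 0.0524 for both).

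With HHEX, 10 genes rose (0.0552%) and 4 fell (0.0221%), where TMM factors gave 35 and 6. They were led by the Golgi protein UNC50 (0.80, adjusted p = 0.0308), the proton pump subunit ATP6V0A1 (0.78, adjusted p = 0.0308) and EYA2, a transcriptional coactivator and phosphatase (0.78, adjusted p = 0.0308). PPARGC1A, the coactivator of mitochondrial biogenesis (−0.76, adjusted p = 0.0396), ZBTB38, a zinc finger protein that binds methylated DNA (−0.75, adjusted p = 0.0396), and the deubiquitinase STAMBPL1 (−0.72, adjusted p = 0.0491) were lowest. UNC50 had r = 0.40 (permutation p = 0.0521) over the same tumors and 0.51 without TC1088 and TC1241. Without TC1088 2 genes were called, 1 of them among the 14, and UNC50 was the only named gene that kept its call. Without TC538 14 were called, 6 of them shared, and STAMBPL1 was lost (adjusted p = 0.0752).

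With TSHR, 12 genes rose (0.0663%) and 23 fell (0.127%), but without TC1088 11 rose and 6 fell, and without TC538 7 rose and 5 fell. CYSLTR2, a receptor for cysteinyl leukotrienes, had the largest rho of any named gene (0.86, permutation p = 3e-07, adjusted p = 0.0136), with r = 0.49 (permutation p = 0.00313) and 0.80 without TC1088 and TC1953. SLC2A5, the fructose transporter, followed (0.83, adjusted p = 0.017), then TMEM243 (0.80, adjusted p = 0.0308). GALNT17, of the family of mucin-type glycosyltransferases (−0.83, adjusted p = 0.017), LAS1L, a factor of ribosome assembly (−0.79, adjusted p = 0.0308), and CPXM1, of the carboxypeptidase family (−0.78, adjusted p = 0.0308), were lowest. The level of GALNT17 was low, with a median of 3.44 and a lowest value of 0.00. All 6 kept their calls without TC1088 and without TC538, although the number called fell from 35 to 17 and to 12, with 8 and 11 shared.

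With TRHR, 5 genes rose (0.0276%) and 4 fell (0.0221%), where TMM factors gave 13 and 5. They included the Rab5 GTPase activator USP6NL (0.75, adjusted p = 0.0396), NKAIN3, which binds the sodium pump (0.74, adjusted p = 0.0396), and ERLEC1, a lectin of the endoplasmic reticulum (0.74, adjusted p = 0.0434). The cartilage collagen COL2A1 (−0.77, adjusted p = 0.0326), the chemokine CCL19 (−0.76, adjusted p = 0.0396) and RASSF10 (−0.73, adjusted p = 0.0438) were lowest. COL2A1 and CCL19 had median levels of only 3.97 and 3.51 and lowest levels of 0.00, so much of their order lies among few counts. COL2A1 had r = −0.76 (permutation p = 1e-05, the smallest possible) and −0.54 without TC1088 and TC812. All 6 lost their calls without TC1088, with adjusted p from 0.0548 (COL2A1) to 0.0728 (RASSF10). Without TC538 only COL2A1 was called. Without TC1088 7 genes were called, but 1 of them was among the 9.

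**Figure D5:**
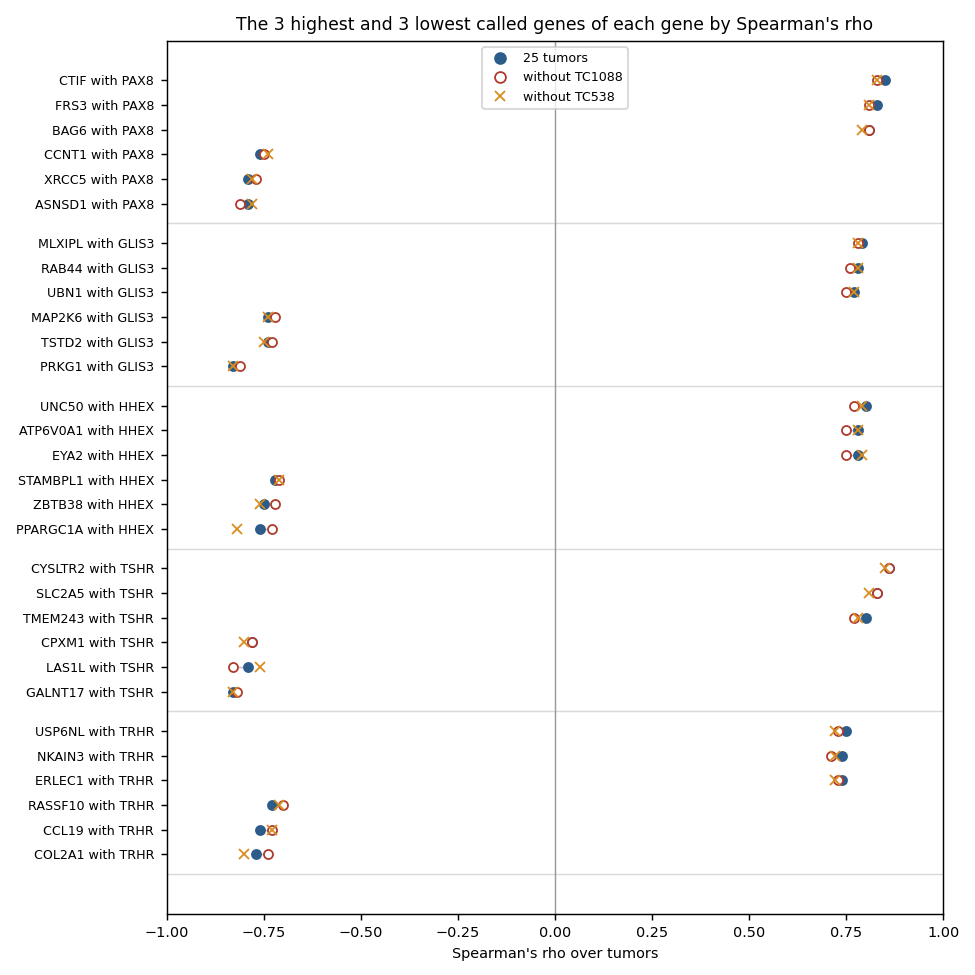
Spearman's rho (x axis) of the 3 highest and 3 lowest called genes of each of the 5 genes over 25 tumors (filled), without TC1088 (open) and without TC538 (crosses). The 3 values of a gene lie close together, as for CYSLTR2 with TSHR (0.86, 0.86 and 0.85), also where the adjusted p crosses the threshold.

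Reads of overlapping transcripts limit 3 of the 5 genes. The strand setting of the counting is not given in the sources used here. The RefSeq table of another dog assembly (UU_Cfam_GSD_1.0) lists 8 entries that overlap GLIS3, 1 that overlaps TSHR and 1 that overlaps TRHR, and 0 for PAX8 and HHEX. Without strand, reads of such a pair cannot be told apart.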

How the data were processed

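The authors extracted total RNA from 30 frozen primary canine thyroid tumors, prepared ribosomal RNA-depleted libraries, mapped paired-end reads with STAR (CanFam3.1, per the labels) and deposited raw counts of reads per Ensembl gene and tumor. The strand setting of the counting is not given in the sources used here. The table held 0 columns of no sample.

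Groups were taken from the sample labels, which give 1 group of tumors. Counts were divided by size factors (median of ratios, from 15611 genes counted in each library), and levels are log2 with a pseudocount of 1. Ward clustering of 722 genes (mean level above 2, variance above 6, without the 5 genes or any listed gene) gave 2 branches, and correlations were computed within the branch of 25 tumors, since pooled values would span separate clusters. A gene was tested when 5 or more of these tumors had 10 or more counts, which left 18105 for each of the 5 genes. Spearman's p values were two-sided, from 10000000 random permutations shared by all genes (smallest p 1e-07), and were adjusted by Benjamini-Hochberg over 90525 relations and called below 0.05. Permutation p values of Pearson's r used 100000 permutations. Calls by Pearson's r and by the partial rho used p values from a t distribution. No batch is given by the labels, so no within-batch value was computed.

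Named genes were the 5 genes, the genes of 14 lists, and for each of the 5 the 3 highest and 3 lowest called genes by rho with a symbol and a mean normalized count of at least 50. The 5 genes and the lists were chosen with earlier results of these data known. Some genes of the lists are not reported here and are left out of the list counts and sums. Each tumor came from a separate dog, and the p values measure the spread between tumors. The alternatives were TMM factors, no count filter or a stricter one (50 counts in 15 tumors), Pearson's r, leaving out TC1088, a partial rho, edgeR 4.0.16 (quasi-likelihood test of the counts with the level of the gene as a covariate), a pseudocount of 8 and, added after seeing the data, leaving out TC538. The tests were also run on simulated data with known relations, and the outcome is not given here. For edgeR the simulated covariate was the rank of the TSHR level, with no outlying tumor. That run therefore cannot speak to calls that may rest on TC1088. Python 3.11.15 (numpy 2.4.6, scipy 1.17.1, pandas 2.3.3, matplotlib 3.10.9) and R 4.3.3 were used. Floors and counts cover counting error only.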

Additional observations from a re-analysis of the deposited data

How the results depend on the processing

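The number of genes called was the result that moved most, and the cause was not tested. In the order PAX8, GLIS3, HHEX, TSHR and TRHR, 63, 29, 14, 35 and 9 genes were called. TMM factors gave 138, 47, 41, 48 and 18, and testing without a count filter, over 28630 genes, gave 17, 6, 3, 17 and 1. The stricter filter gave 81, 22, 17, 30 and 19. Leaving out TC1088 gave 12, 10, 2, 17 and 7, and leaving out TC538, chosen after seeing the data, 11, 11, 14, 12 and 1. A partial rho given a single mean level of the stroma and leukocyte genes, with a p from a t distribution, gave 245, 92, 37, 100 and 68. Pearson's r with a p from a t distribution gave 888, 188, 501, 490 and 155 and called 4 of 10 pairs in place of 0 (PAX8 and HHEX, PAX8 and TSHR, HHEX and TSHR, TSHR and TRHR). For HHEX and TSHR that p was 7.28e-09, where the permutation p of the same r was 0.0234. The edgeR test gave 1528, 460, 740, 769 and 460, and its split of genes higher and lower was 472 and 1056 with PAX8, 165 and 295 with GLIS3, 166 and 574 with HHEX, 220 and 549 with TSHR and 96 and 364 with TRHR, where rho gave 45 and 18, 23 and 6, 10 and 4, 12 and 23, and 5 and 4. Of the calls by rho, 33.3% (PAX8), 89.7% (GLIS3), 14.3% (HHEX), 40% (TSHR) and 88.9% (TRHR) were among those of edgeR. By rho, 0 pairs were called in any setting, so a reversal past the threshold could not occur among these settings. Small values did change sign, as without TC1088 for PAX8 and TSHR (rho 0.05 to −0.08) and for HHEX and TSHR (0.05 to −0.07). The mean levels of the 5 genes moved by less than 1 SD with TMM factors and with a pseudocount of 8. Depth limits TRHR in the 8 tumors with under 10 counts.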

Other observations

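The 5 tumors of the smaller branch were all low in PAX8, GLIS3 and TRHR and differed among themselves in TSHR. PAX8 was at most 10.68 in them, and the larger branch without TC1088 began at 10.84. GLIS3 was at most 8.30, and only TC812 of the larger branch (7.70) lay below that. TC2289 had PAX8 at 3.12, GLIS3 at 6.16, HHEX at 11.48, TSHR at 8.14 and TRHR at 0.00. TC1473 had PAX8 at 6.80, GLIS3 at 5.80, HHEX at 12.78, TSHR at 6.78 and TRHR at 2.47. TC1936 had PAX8 at 8.09, GLIS3 at 8.30, HHEX at 11.50, TSHR at 10.83 and TRHR at 0.00. TC1020 had PAX8 at 10.51, GLIS3 at 5.16, HHEX at 11.84, TSHR at 10.84 and TRHR at 1.55. TC1601 had PAX8 at 10.68, GLIS3 at 7.98, HHEX at 12.52, TSHR at 11.96 and TRHR at 0.00. HHEX lay within the range of the other tumors in all 5, and TRHR had at most 5 counts in all 5. TC1473 had low TSHR (120 counts) beside an HHEX level above the median. These branches were found in the data and are not groups given by the sample labels, so no difference between them was tested.

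The summed C cell level was high in the same 5 tumors, but not every marker was. The summed level of 11 C cell genes was 18.16 in TC2289, 18.29 in TC1601, 18.78 in TC1473, 19.31 in TC1020 and 19.63 in TC1936, and at most 13.22 in the 25 others. RET was at 13.00 or above in all 5 and at most 9.38 in the others. The calcitonin gene CALCA was at 16.80 to 19.24 in 4 of them, but TC2289 had 95 counts (6.94), within the range of the others (0.00 to 12.90), and its sum was led by SCG2 (17.64). In TC2289 CALCB (8.48) and GFRA4 (5.74) also lay within the range of the others, and TC1473 had 4 counts of GFRA4. TC1601 had 226 counts of CHGB (7.61), within the range of the others (1.38 to 8.05). The summed hormone synthesis level was 10.74 in TC2289, 12.03 in TC1473, 13.23 in TC1936, 10.69 in TC1020 and 17.76 in TC1601. TC1601 thus had a high summed C cell level together with the highest PAX8, TSHR and hormone synthesis levels of the 5.

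TC1088 was low in many follicular genes without high C cell genes. It had 12 counts of TG and 0 of IYD and SLC26A7, all below the range of the other 24 tumors of its branch. Not every gene of the hormone synthesis list was low. ANO1 was at 10.62 and DIO2 at 4.58, where the medians of the other 24 tumors were 8.89 and 3.05. SLC5A5 (5.80), SLC26A4, SLC5A8, KCNE2 and KCNQ1 lay within the range of those tumors. The CALCA count of TC1088 was 1 and its RET count 110. It had the highest level of all 30 tumors for PAX9 (12.72, 6775 counts), PAX1 (11.56, 3019 counts), EYA1 (14.54, 23983 counts) and HOXA3 (10.57, 1529 counts), factors of the embryonic pharyngeal pouches, whose medians over 30 tumors were 6.46, 1.17, 4.92 and 3.75 in this order. These 4 genes were picked from the fixed lists after their values were seen. Of the other development genes of the lists, ISL1 was also high in this tumor (10.45, at most 4.22 in the rest of its branch). FGFR2 was at 12.14, near the highest of the rest (12.22). Several others were low. TBX3 was at 4.75, the lowest of 30 (median 11.69), TBX1 at 2.00 (median 4.57), HOXB3 at 2.58 (median 5.58) and FGF10 at 1.00 (median 5.61). FOXA2 was at 0.00, but its median was 0.87 and 24 tumors had under 10 counts. GLIS3 stayed at 8.94 in this tumor.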
